A study of Homo sapiens with 8 samples.

Results

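The chromatin around 10 genes of the bone-forming lineage was examined in U2OS, which is a cell line from a human osteosarcoma. These genes were the transcription factor genes RUNX1, RUNX2 and RUNX3, the osteoblast factor gene SP7, the alkaline phosphatase gene ALPL and the matrix genes COL1A1, COL1A2, SPP1, BGLAP and IBSP. Accessible chromatin had been mapped by ATAC-seq, in which the Tn5 transposase cuts open DNA, and each of 8 libraries came as a list of called regions. A region belonged to a gene when it overlapped the annotated gene span, extended by 20 kb on each side (GENCODE release 44, hg38). Overlapping regions of the 8 lists were merged into 548046 sites, of which 551 belonged to the 10 genes. The 4 groups of 2 libraries each were wild-type (WT) cells without UV, WT cells 3 h after 20 J/m2 of UV, ASH1L-/- cells without UV and ASH1L-/- cells 3 h after the same dose. Cells without UV are called unchallenged, and those collected 3 h post UV irradiated. ASH1L is a histone methyltransferase, and the ASH1L-/- cells were derived by CRISPR/Cas9 deletion from individual colonies of U2OS, so that the genotype and the clone cannot be told apart. The replicates were independent experiments per the study's legends.

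RUNX proteins bind DNA through the runt domain together with the partner protein CBFB. RUNX2 is required for osteoblasts to form, and SP7 (osterix) acts downstream of it. RUNX1 is best known from blood formation and RUNX3 from T cells and neurons, and each RUNX gene is transcribed from a distal and a proximal promoter. ALPL frees phosphate for mineral, COL1A1 and COL1A2 encode the chains of type I collagen, and SPP1 (osteopontin), BGLAP (osteocalcin) and IBSP (bone sialoprotein) are non-collagenous matrix proteins that RUNX2 is known to induce. An open promoter does not by itself show that a gene is transcribed, and no RNA was measured in these libraries.

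The promoter sequences below each belong to a start with a region within 1 kb in all 8 lists, and each holds the RUNX core. Capitals mark the RUNX core TGTGGT and the AP-1 letters TGANTCA on either strand (the RUNX core reads ACCACA on the other strand). The RUNX3 and BGLAP stretches are the 250 bases before the RefSeq start (GRCh38.p14), and the RUNX2 stretch is the 250 bases of hg38 before the first annotated start.
RUNX2 distal promoter, plus strand, chr6:45327907-45328156: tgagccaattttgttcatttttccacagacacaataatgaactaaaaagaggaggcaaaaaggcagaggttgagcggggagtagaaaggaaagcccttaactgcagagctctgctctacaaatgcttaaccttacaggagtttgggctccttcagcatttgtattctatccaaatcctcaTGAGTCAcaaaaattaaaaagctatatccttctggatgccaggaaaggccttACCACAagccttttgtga
RUNX3 distal promoter, minus strand, chr1:24965011-24965260: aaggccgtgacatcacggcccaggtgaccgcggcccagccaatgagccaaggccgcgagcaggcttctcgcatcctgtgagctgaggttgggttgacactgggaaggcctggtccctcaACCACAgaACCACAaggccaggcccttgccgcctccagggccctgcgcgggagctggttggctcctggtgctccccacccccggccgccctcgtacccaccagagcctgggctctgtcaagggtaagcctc
BGLAP promoter, plus strand, chr1:156241934-156242183: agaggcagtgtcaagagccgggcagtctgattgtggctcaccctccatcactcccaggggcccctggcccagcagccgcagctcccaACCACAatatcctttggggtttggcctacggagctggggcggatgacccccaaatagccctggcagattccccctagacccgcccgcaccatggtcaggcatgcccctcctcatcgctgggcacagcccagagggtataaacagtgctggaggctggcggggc
In RUNX2 the RUNX letters began 18 bases before the first annotated start. The RUNX3 stretch held 2 copies of the RUNX letters and the BGLAP stretch held 1. The RUNX1 proximal promoter also had a region in all 8 lists. Its 250 bases before the RefSeq start (chr21:34888700-34888949) held neither the RUNX nor the AP-1 letters and are not printed. The promoter table matched 7 of the 10 genes with 11 promoter sequences. Over the 300 bases around the start, the RUNX letters occurred in 4 of these 11 (in RUNX2, RUNX3, SPP1 and BGLAP) and in 13.1% of the 35116 promoters in the table. The AP-1 letters occurred in 1 of the 11, at RUNX2, and in 7.71% of all promoters. These letter matches are descriptions and not bound sites.

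The next stretches are the 151 bases of hg38 (plus strand) around the summit of the strongest site at 4 of the genes, and they carry the same capitals.
RUNX1 strongest intronic site, chr21:35217715-35217865: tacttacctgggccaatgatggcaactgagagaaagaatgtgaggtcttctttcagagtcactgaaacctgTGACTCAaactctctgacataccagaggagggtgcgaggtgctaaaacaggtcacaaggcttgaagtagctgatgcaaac
RUNX2 strongest intronic site, chr6:45445881-45446031: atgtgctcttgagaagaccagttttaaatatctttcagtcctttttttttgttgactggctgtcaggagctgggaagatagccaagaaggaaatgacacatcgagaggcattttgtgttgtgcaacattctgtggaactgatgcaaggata
COL1A1 downstream site, chr17:50178347-50178497: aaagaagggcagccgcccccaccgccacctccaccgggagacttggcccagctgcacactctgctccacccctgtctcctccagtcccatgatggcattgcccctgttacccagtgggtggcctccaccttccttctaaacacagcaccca
ALPL downstream site, chr1:21587039-21587189: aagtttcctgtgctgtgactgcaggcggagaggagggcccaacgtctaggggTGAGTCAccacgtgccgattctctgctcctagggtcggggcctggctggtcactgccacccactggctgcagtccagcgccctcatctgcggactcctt
These 4 sites held the AP-1 letters at RUNX1 and ALPL and neither motif at RUNX2 and COL1A1. In windows of 201 bases around the summit, 33 of the 108 sites of the 10 genes that had a region in all 8 lists contained TGANTCA (30.6%), compared with 25.3% of all 60323 such sites of the genome. TGTGGT was present in 20 of the 108 (18.5%), compared with 17.5% genome-wide. The GC box GGGCGG was found in 8 of the 108 (7.41%) and in 15.6% of all sites. Both strands were searched, and none of these motifs contains another. Of the 33 sites with the AP-1 letters, 22 lay at RUNX1, which held 62 of the 108 sites.

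The lists held between 158198 and 220783 regions, of which 189 to 260 belonged to the 10 genes. The mean pileup over the genome, the number of fragments over a base as solved from the listed fold enrichments and p values, ranged from 1.39 to 5.87. Both extremes were unchallenged ASH1L-/- libraries, which also held the fewest and the most regions at the 10 genes (189 in replicate 2 and 260 in replicate 1). In unchallenged WT the pileup was 2.1 and 1.74, and in the 4 UV lists it was 2.45 to 2.81. Regions with a q value below 0.05 made up 77.4% to 80.1% of the unchallenged lists and 85.7% to 94.2% of the UV lists. The median region was 242 to 291 bp wide in the 4 unchallenged lists and 356 to 444 bp in the 4 UV lists. Neither the q value shares nor the widths overlapped, and the part of these differences in the results was not tested. At ASH1L itself the promoter was listed in all 8 libraries, and the gene held 9 to 14 regions in WT and 3 to 9 in ASH1L-/- libraries. None of its 35 sites was present in all WT and absent from all ASH1L-/- lists, and the lists do not test the deletion. Heights are given as the percentile of a region's fold enrichment within its own list (0 lowest, 100 highest), because the lists were not normalised to each other.

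Sites of the 10 loci were listed in every library more often than sites of the genome as a whole. Of the 551 sites, 108 (19.6%) had a region in all 8 lists, compared with 11% of all sites. A further 261 (47.4%) were listed in a single library, compared with 60.5% of all sites. Height did not set the 108 apart: their median percentile over the lists was 81.8, compared with 80.4 for all sites present in 8 lists. In the top quartile of every list were 41 of them (38.0%), compared with 37.4% genome-wide. Most of the 108 lay in introns (78), while 13 were upstream of the gene, 12 downstream and 5 over exons. Only 9 lay within 1 kb of a start of one of the 10 genes.

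The density of constantly open sites varied widely among the genes. RUNX1, whose annotated span with flanks is 1257 kb, held 305 sites with 62 in all 8 lists, or 4.93 per 100 kb. The median protein-coding gene had 3.37 per 100 kb. The RUNX1 span depends on the annotation: RefSeq ends the gene at position 35049302, and 198 of the 305 sites, with 48 of the 62 in all lists, lie more than 20 kb beyond that end. Within the RefSeq span and flanks the density was 4.64 per 100 kb. RUNX2 held 91 sites with 13 in all lists (3.46 per 100 kb), and RUNX3 held 41 with 5 (4.73 per 100 kb). BGLAP was the densest of the 10 genes, at 12.2 per 100 kb (percentile 98.0 of all protein-coding genes) in a window shared with its neighbours. The densities at SP7 (8.51), ALPL (8.26) and COL1A1 (8.69 per 100 kb) stood at percentiles 90.0, 89.2 and 90.7. COL1A2 stood at the other end, with 14 sites and none in all 8 lists. SPP1 had 3 constant sites of 12, BGLAP 5 of 14 and IBSP 1 of 16. Flanks hold other genes: the BGLAP window includes parts of PMF1, PMF1-BGLAP, PAQR6 and SMG5, the SP7 window includes MYG1 and AAAS, the COL1A1 window includes SGCA, the ALPL window includes RAP1GAP and the IBSP window includes MEPE. SUPT3H overlaps the RUNX2 distal promoter.

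**Figure D1:**
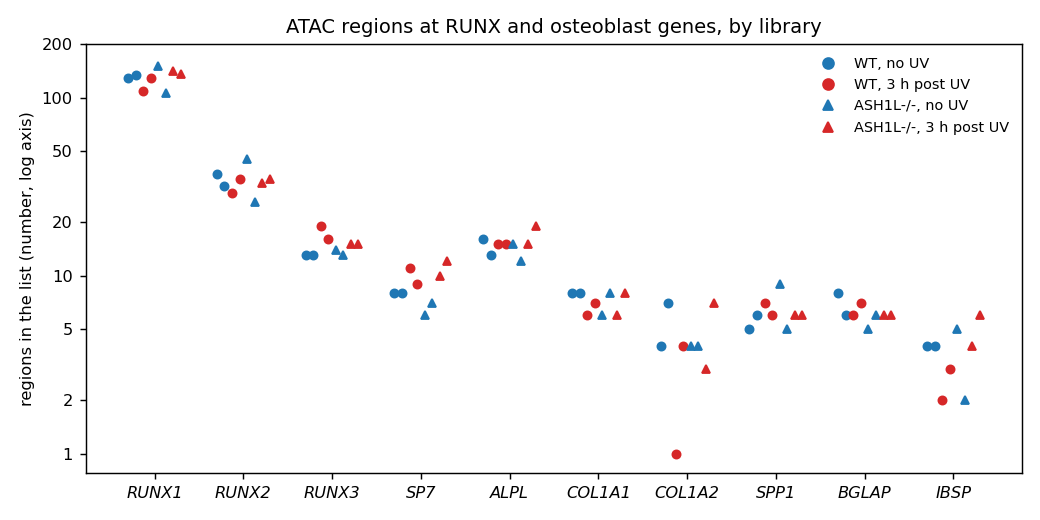
Number of regions (log axis) at each gene span with 20 kb flanks, 1 point for each of the 8 libraries; circles are WT, triangles ASH1L-/-, blue unchallenged and red 3 h post UV. RUNX1 carries 106 to 151 regions per library, and at RUNX3 and SP7 all red points lie above all blue points.

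Promoters were compared by the strongest region within 1 kb of an annotated start. RUNX1, RUNX2, RUNX3, SP7, ALPL, COL1A1 and BGLAP had a promoter region in all 8 lists. COL1A2 and SPP1 had one in 7 lists, both missing in replicate 2 of unchallenged ASH1L-/- cells, the library with the lowest pileup. IBSP had none in any list. Over all 19970 protein-coding genes, 67.6% had a promoter region in every list and 11.8% in none. For genes with one in every list, the median of the mean promoter percentile was 88.5.

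RUNX1 was accessible at its distal, proximal and farthest annotated start in every library. The start farthest upstream (chr21, position 36004667) was the strongest, with percentiles of 97.8 and 99.6 in unchallenged WT, 97.4 and 93.0 in WT 3 h post UV, 96.3 and 94.1 in unchallenged ASH1L-/- and 96.6 and 96.2 in irradiated ASH1L-/- cells. The proximal promoter around position 34888690 ranged from 80.1 to 89.2, and the distal promoter around position 35049270 from 47.5 to 74.8. Within 1 kb of the starts, all 8 values of the proximal promoter were thus above all 8 of the distal. Outside this limit, a site 2230 bp upstream of the distal starts (chr21:35051162-35051765) stood at 84.1 to 97.1 in the 8 lists. Of 16 annotated RUNX1 starts, 9 had a region in all lists and 6 in none. The strongest RUNX1 site was not a promoter but an intronic site, chr21:35217420-35218212, 152718 bp upstream of the nearest start, at 98.7 to 99.8. It is intronic only in GENCODE, and both it and the farthest start lie beyond the RefSeq span of RUNX1. Its fold enrichment was 17.4 to 23.3.

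RUNX2 showed the reverse order within 1 kb of its starts. The distal promoter was above the proximal one in each list that held both, although values from different lists overlapped. Its distal promoter, at position 45328157, had a region in all 8 lists, at percentiles of 59.2 and 96.0 in unchallenged WT, 68.4 and 86.3 in WT 3 h post UV, 87.2 and 91.5 in unchallenged ASH1L-/- and 71.1 and 68.6 in irradiated ASH1L-/- cells. The 2 unchallenged WT replicates were the lowest and the highest of the 8. The proximal promoter around position 45422485 was weak, at 12.5 and 52.3, 19.8 and 29.1, 74.2 and 2.05, and, in irradiated ASH1L-/- cells, absent in replicate 1 and 5.40 in replicate 2. A region over the starts themselves (chr6:45422061-45422595) was listed in the 4 unchallenged libraries only. The values after UV come from neighbouring regions within 1 kb that do not touch it.

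Within the RUNX2 gene, 12 further sites were open in all libraries. The strongest was intronic, chr6:45445250-45446390, 23379 bp downstream of the nearest start, at percentiles of 98.3 and 99.6, 97.2 and 99.3, 98.8 and 99.5, and 98.4 and 99.4 in the same order of groups. Its fold enrichment was 13.8 to 22.2. An intronic site toward the end of the gene, chr6:45655693-45656608, reached 96.0 to 99.0. The span between the distal and the proximal start held 1 constant site, chr6:45419416-45420174, at 42.8 to 72.5.

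**Figure D2:**
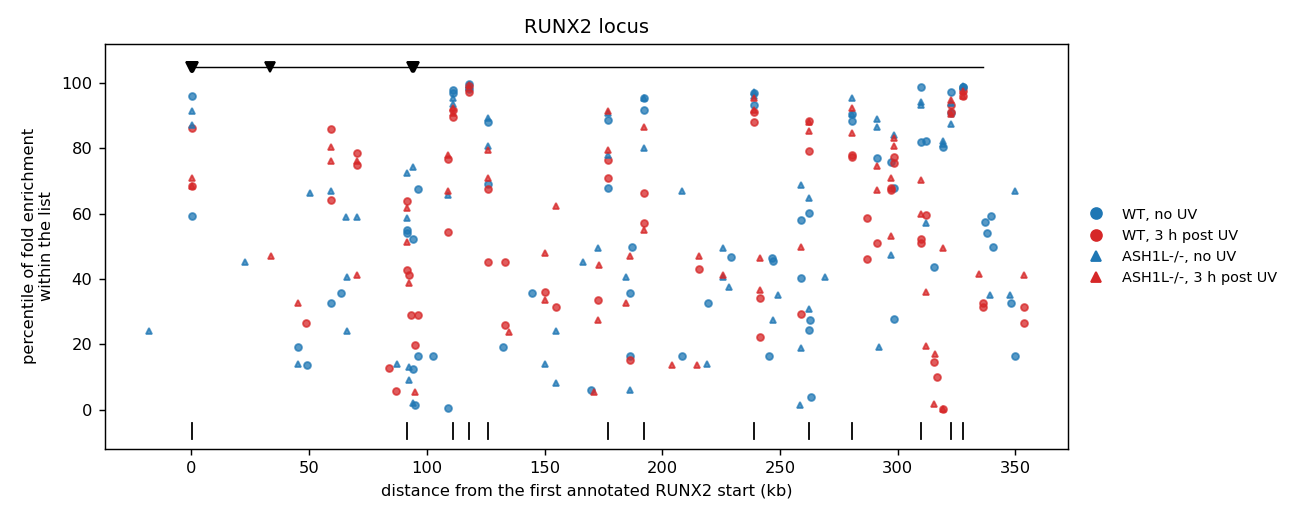
Percentile of fold enrichment of every region at the RUNX2 locus against its distance from the first annotated RUNX2 start (kb), 1 point per site and library; circles are WT, triangles ASH1L-/-, blue unchallenged and red 3 h post UV. Triangles at the top mark annotated starts, the line the gene span, and ticks at the bottom the 13 sites with a region in all 8 lists, most of which lie beyond the proximal starts.

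RUNX3 had regions at the distal promoter and none at the proximal one. Around the distal starts (position 24965010), chr1:24964642-24965409 had percentiles of 95.0 and 96.3 in unchallenged WT, 87.6 and 80.7 in WT 3 h post UV, 97.3 and 94.6 in unchallenged ASH1L-/- and 88.9 and 90.7 in irradiated ASH1L-/- cells. It was the strongest RUNX3 site. No list held a region within 1 kb of the proximal start at position 24930276. Fold enrichment at the distal promoter was 11.4 to 14.8 without UV and 10.1 to 11.3 with UV, on scales that differ between lists.

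SP7 had a promoter region at 71.1 and 85.7 in unchallenged WT, 69.9 and 78.7 in WT 3 h post UV, 78.1 and 74.9 in unchallenged ASH1L-/- and 71.6 and 72.7 in irradiated ASH1L-/- cells. The groups overlapped. The strongest site in its window (95.3 to 99.3) was the promoter of the neighbouring AAAS gene. The 3 inner SP7 starts had a region in 3 lists only, at 13.7 to 31.3.

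ALPL was open at an inner start and not at the first. No library had a region within 1 kb of the ALPL starts at positions 21509397 to 21509428. The start at position 21551279 had a region in 5 lists, at 14.2 to 37.1. The inner start at position 21574478 had percentiles of 85.4 and 85.8 in unchallenged WT, 68.8 and 71.0 in WT 3 h post UV, 91.7 and 83.8 in unchallenged ASH1L-/- and 77.1 and 81.2 in irradiated ASH1L-/- cells. All 4 UV values were below all 4 others. This inner start is annotated in GENCODE and is not among the RefSeq starts of ALPL used here. The strongest ALPL site lay 8704 bp beyond the gene end (chr1:21586597-21587594) at 91.0 to 99.1.

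The collagen chain genes differed. COL1A1 had a promoter region at 94.1 and 93.6 in unchallenged WT, 89.0 and 74.1 in WT 3 h post UV, 95.3 and 94.3 in unchallenged ASH1L-/- and 83.0 and 88.3 in irradiated ASH1L-/- cells, again without overlap between UV and unchallenged lists. Its strongest site was 5679 bp downstream of the gene (chr17:50177988-50178859) at 98.3 to 99.9, with fold enrichments of 17.6 to 21.8. The COL1A2 start at position 94394895 had percentiles of 72.1 and 16.5 in unchallenged WT, 61.5 and 62.0 in WT 3 h post UV, 71.8 in replicate 1 of unchallenged ASH1L-/- and 13.7 and 72.0 in irradiated ASH1L-/- cells. Replicates of the same group were as far apart as any groups.

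Among the matrix protein genes, the SPP1 start at position 87975667 had percentiles of 67.3 and 70.6 in unchallenged WT, 59.9 and 63.0 in WT 3 h post UV, 70.6 in replicate 1 of unchallenged ASH1L-/- and 16.5 and 58.1 in irradiated ASH1L-/- cells. BGLAP was the most even of the 7 promoters listed in all libraries, at 80.8 and 75.9, 80.4 and 80.2, 77.9 and 76.7, and 79.0 and 81.3 in the order of groups used above. That region also lies inside the readthrough gene PMF1-BGLAP, and the lists cannot assign it to either. The strongest BGLAP site (74.5 to 94.7) was 19248 bp past the gene end, inside SMG5, and the strongest SPP1 site (chr4:87985518-87986033) was 2163 bp past the gene end, at 80.1 to 94.0.

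IBSP had no region within 1 kb of its start (position 87799554) in any library. Of its 16 sites, 11 were listed in a single library.

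**Figure D3:**
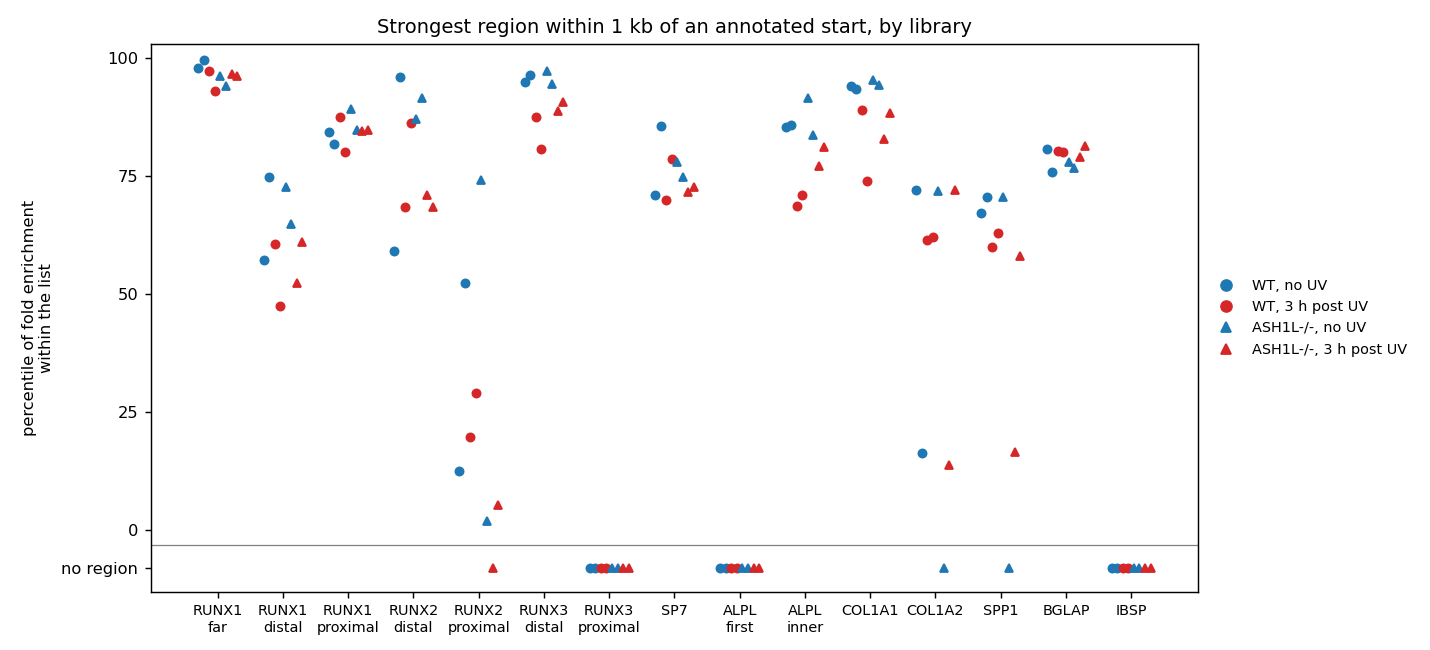
Percentile of fold enrichment of the strongest region within 1 kb of the named starts (for COL1A1 and BGLAP, of any annotated start), 1 point for each of 8 libraries, with libraries lacking a region on the bottom line; circles are WT, triangles ASH1L-/-, blue unchallenged and red 3 h post UV. The RUNX3 proximal start, the first ALPL start and the IBSP start have no region in any library, and at RUNX3 distal, ALPL inner and COL1A1 all red points lie below all blue points.

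To ask whether UV altered accessibility at these genes, the 4 UV libraries were compared with the 4 unchallenged ones with genotype in the model (limma, Benjamini-Hochberg adjustment over all 60323 sites in 8 lists). After UV, 2 of the 108 sites changed (1.85%, against 2.8% of all sites tested), both downward. The RUNX2 intronic site chr6:45637543-45638307 had percentiles of 81.9 and 98.9 in unchallenged WT, 50.9 and 52.4 in WT 3 h post UV, 93.3 and 94.3 in unchallenged ASH1L-/- and 60.0 and 70.4 in irradiated ASH1L-/- cells. It fell by 33.7 points (SE 4.61, limma adjusted p = 0.0296), from 92.1 ± 7.25 to 58.4 ± 8.89 (SD, n = 4 libraries each). The RUNX1 site chr21:34775685-34776299, 11791 bp downstream of the gene, had 90.8 and 84.1, 48.2 and 56.3, 88.8 and 85.9, and 54.1 and 73.8 in the same order. It fell by 29.3 points (SE 5.17, limma adjusted p = 0.0454), from 87.4 ± 2.97 to 58.1 ± 11 (SD, n = 4 each). This call was lost on a percentile of −log10 p (limma adjusted p = 0.0756) and with the replicate number in the model (limma adjusted p = 0.0729). With any single library left out, between 0 and 2 sites passed, as did 0.144% to 1.11% of all sites tested. The count was 2 only when replicate 2 of irradiated ASH1L-/- cells was left out, 1 when replicate 1 of irradiated WT cells was left out and 0 otherwise.

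The stretches around these summits and around the strongest RUNX1 site that was listed only after UV follow, again 151 bases of the hg38 plus strand with the same capitals.
RUNX2 intronic site lower after UV, chr6:45637863-45638013: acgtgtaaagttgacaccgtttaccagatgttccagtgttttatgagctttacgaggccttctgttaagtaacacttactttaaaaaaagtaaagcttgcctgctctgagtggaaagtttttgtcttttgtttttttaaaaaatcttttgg
RUNX1 downstream site lower after UV, chr21:34775935-34776085: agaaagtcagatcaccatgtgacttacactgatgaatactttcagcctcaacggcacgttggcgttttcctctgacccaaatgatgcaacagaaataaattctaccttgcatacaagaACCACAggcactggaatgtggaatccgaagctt
RUNX1 intronic site listed only after UV, chr21:34823038-34823188: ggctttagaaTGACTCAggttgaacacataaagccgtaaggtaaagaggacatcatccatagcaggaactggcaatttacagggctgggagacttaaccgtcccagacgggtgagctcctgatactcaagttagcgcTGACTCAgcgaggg
The RUNX2 site held neither motif, the RUNX1 downstream site held 1 RUNX core, and the RUNX1 site listed only after UV held 2 copies of the AP-1 letters.

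Below the threshold, 29 of the 108 sites had an unadjusted p under 0.05 in the limma fit (26.9%, against 24.1% of all sites). All 4 UV percentiles were above the other 4 at 6 of the 108 sites (5.56%, against 5.99% of all sites) and below them at 16 (14.8%, against 12.3%). The mean was higher after UV at 40 of the 108 (37.0%), compared with 40.6% of all sites. The median difference was -2.06 points for the 108 and -1.39 for all sites. These shares were thus close to those of the genome. The largest rise of the 6, chosen after the values were seen, was an intronic RUNX2 site, chr6:45590091-45590717, at 24.3 and 60.2 in unchallenged WT, 88.3 and 79.3 in WT 3 h post UV, 64.9 and 30.9 in unchallenged ASH1L-/- and 85.5 and 88.2 in irradiated ASH1L-/- cells. Its difference of 40.3 points (SE 10.0) did not pass (limma adjusted p = 0.0849).

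**Figure D4:**
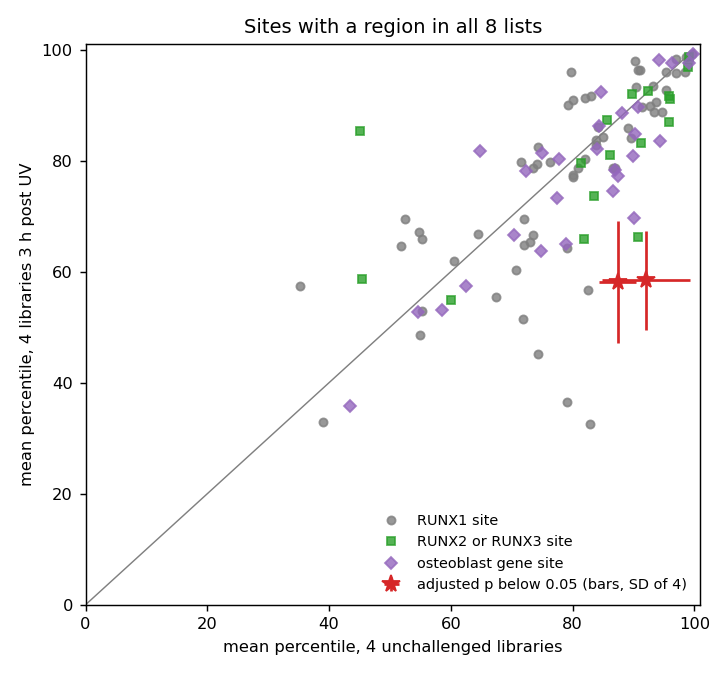
Mean percentile of the 4 libraries 3 h post UV against that of the 4 unchallenged libraries for the 108 sites with a region in all 8 lists; the line marks equal values. The stars with SD bars (n = 4 libraries) are the sites at RUNX2 and RUNX1 with an adjusted p below 0.05, at 92.1 and 87.4 unchallenged and 58.4 and 58.1 after UV, and 40 of the 108 sites lie above the line.

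No promoter of the 7 genes with a region in all lists passed the same test over 13492 promoters (0 of 7, against 0.408% of all promoters). At 3 of the 7 all UV percentiles were below the others, compared with 20.1% of all promoters, and at 0 of 7 they were above, compared with 1.67%. These were RUNX3, ALPL at its inner start, and COL1A1. RUNX3 differed by -8.81 points (SE 2.0, limma adjusted p = 0.0836). ALPL differed by -12.1 points (SE 2.43, limma adjusted p = 0.0725) and COL1A1 by -10.7 points (SE 3.31, limma adjusted p = 0.124). The same 3 had an unadjusted p under 0.05 in limma, and 26.4% of all promoters did. BGLAP differed by 2.41 points, RUNX1 by -1.18, SP7 by -4.24 and RUNX2 by -9.91. The RUNX1 value is that of its strongest start, at position 36004667, which lies beyond the RefSeq span. In the test over sites, the RUNX1 distal promoter had means of 67.4 unchallenged and 55.4 after UV (limma adjusted p = 0.213). Its proximal promoter had means of 85.0 and 84.3 (limma adjusted p = 0.875), so neither passed. The median promoter of the genome differed by -2.57 points, and 77.4% of promoters had a lower mean after UV.

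Sites listed on a single side of the UV comparison were counted next. In all 4 UV lists and none of the unchallenged were 7 of the 551 sites (1.27%, against 0.686% of all sites). Of these, 4 lay in RUNX1 introns (2 of them within the RefSeq span), and RUNX2, RUNX3 and SP7 had 1 each. The strongest was the RUNX1 site chr21:34822898-34823425, at 75.6 and 76.4 in WT and 52.6 and 75.7 in irradiated ASH1L-/- cells. Next came the RUNX3 intronic site chr1:24924948-24925467, 3565 bp from the proximal cluster of starts, at 69.4 and 48.7 in WT and 64.8 and 66.7 in ASH1L-/-. The RUNX1 site chr21:35579054-35579555, 1553 bp from an annotated start, had 73.2 and 38.6 in WT and 72.3 and 58.5 in ASH1L-/-. The SP7 site chr12:53355309-53355994, 10381 bp upstream of the nearest start, had 57.7 and 41.4 in WT and 44.5 and 58.6 in ASH1L-/-. The other 3 were chr21:35905363-35905747 at 33.5 to 61.5, chr6:45569495-45569769 in RUNX2 at 22.2 to 46.3 and chr21:34812502-34812860 at 1.46 to 14.4. None of these percentiles exceeded 76.4.

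The reverse pattern, all 4 unchallenged lists and no UV list, was met by 2 of the 551 sites (0.363%, against 0.0967% of all sites). The first was the RUNX2 proximal promoter region described above, at 12.5 and 52.3 in WT and 74.2 and 2.05 in ASH1L-/- cells. The second lay 19167 bp upstream of COL1A2 (chr7:94375473-94376049), at 66.3 and 41.1 in WT and 35.1 and 44.6 in ASH1L-/- cells. A region missing from a list was not called in that library, which does not show that the DNA was closed.

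The numbers of regions in UV and unchallenged lists did not overlap at RUNX3 and SP7. RUNX3 held 13, 13, 14 and 13 regions in the unchallenged lists and 19, 16, 15 and 15 in the UV lists, means of 13.2 ± 0.50 and 16.2 ± 1.89 (SD, n = 4; exact two-sided permutation p = 0.0286). SP7 held 8, 8, 6 and 7 regions unchallenged and 11, 9, 10 and 12 after UV, means of 7.25 ± 0.957 and 10.5 ± 1.29 (SD, n = 4; exact two-sided permutation p = 0.0286). This p is the smallest that 4 libraries against 4 can give and is not adjusted over the 10 genes. Over all protein-coding genes, 1.37% had all 4 UV lists above the others and 1.1% had them all below, which none of the 10 did. Over the 10 loci together the unchallenged lists held 228 ± 29.2 regions and the UV lists 231 ± 18.8 (SD, n = 4; exact permutation p = 0.914 on the log2 scale). With regions at a q value of 0.01 or below, the log2 difference was 0.295 instead of 0.0260 (exact permutation p = 0.0571).

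The same comparisons were made between ASH1L-/- and WT libraries. No site of the 108 passed (0, against 0% of all sites), with 10 at an unadjusted p under 0.05 in limma (9.26%, against 9.38% of all sites). The smallest limma adjusted p among them was 0.228, at an intronic RUNX1 site (chr21:34937065-34937507) with means of 58.6 in WT and 78.2 in ASH1L-/- cells. The largest difference was at an ALPL site (chr1:21594487-21595042), with means of 56.6 in WT and 22.6 in ASH1L-/- cells (limma adjusted p = 0.397). No promoter of the 7 passed either (0.00741% of all promoters did). None had an unadjusted p under 0.05 in limma, compared with 6.93% of all promoters. The promoter differences ran from -2.03 points at SP7 to 5.67 at ALPL.

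No site of the 551 was in all ASH1L-/- lists and no WT list (0.186% of all sites were) or the reverse (0.0768% of all sites). No gene of the 10 had region numbers without overlap between the genotypes, whereas 1.92% of genes had all ASH1L-/- lists above and 1.98% all below. The 10 loci held 224 ± 13.0 regions in WT and 234 ± 31.4 in ASH1L-/- libraries (SD, n = 4; exact permutation p = 0.657 on the log2 scale). Without replicate 2 of unchallenged ASH1L-/- cells the log2 difference was 0.152 (exact permutation p = 0.0286, the smallest that 4 libraries against 3 can give). The other 3 ASH1L-/- libraries held 239 to 260 regions and the WT libraries 205 to 231. These 3 include the library with the highest pileup (5.87). As a share of the list, the log2 difference over all 8 libraries was -0.0304 (exact permutation p = 0.686).

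Whether the UV difference depended on the genotype was tested as an interaction. None of the 108 sites passed (0, against 0% of all sites), and 2 had an unadjusted p under 0.05 in limma (1.85%, against 3.78% of all sites). The site with the smallest p, named after its values were seen, was an intronic RUNX1 site (chr21:35294204-35295116), beyond the RefSeq span. Its percentiles were 70.1 and 86.6 in unchallenged WT, 60.7 and 59.9 in WT 3 h post UV, 89.6 and 84.9 in unchallenged ASH1L-/- and 4.20 and 5.45 in irradiated ASH1L-/- cells. The UV difference was -18.0 points in WT and -82.5 in ASH1L-/- cells, a gap of -64.4 points (SE 7.97). The limma p was 0.000312 before and 0.547 after adjustment.

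Other genes of the pathway were read from lists of known genes. Over all protein-coding genes, 67.6% had a promoter region in every list and 11.8% in none. Of 19 RUNX partners and osteoblast regulators, 15 had a promoter region in all 8 lists and none lacked one in every list. The highest were TLE1, a corepressor of RUNX proteins, at a mean percentile of 99.6 and the growth factor receptor gene FGFR2 at 91.8. CBFB, which encodes the shared partner subunit, stood at 90.4. The median over all genes with a promoter region in all 8 lists was 88.5. The lowest were the homeobox gene DLX3 at 8.68 in 2 lists and the growth factor gene BMP2 at 9.49 in 2 lists. Of 14 bone matrix and mineralisation genes, 7 had a promoter region in all lists, led by the cadherin gene CDH11 at 90.8 and SPARC (osteonectin) at 89.3. The 4 without one in any list were POSTN, DMP1, SOST and TNFSF11, of which DMP1 and SOST are known as osteocyte genes. No promoter of either list passed the limma test by UV or by genotype.

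The cell-type markers gave a mixed picture of the line. Promoter regions in all 8 lists were found for 5 of 8 osteoblast markers, 2 of 4 chondrocyte markers, 1 of 4 adipocyte markers, 0 of 4 muscle markers, 0 of 4 blood cell markers and 4 of 4 epithelial markers. The share over all protein-coding genes was 67.6%, so the osteoblast count did not stand out. The mean percentiles of the epithelial promoters were 95.3 at CDH1, 93.2 at KRT8, 91.0 at EPCAM and 69.9 at KRT5. The 5 osteoblast promoters ran from 75.3 at SP7 to 88.9 at COL1A1, while the adipocyte gene PPARG stood at 93.3 and the chondrocyte gene SOX9 at 90.4. For comparison, the median of such promoters over all genes was 88.5. The osteoblast genes IBSP, SPP1 and COL1A2 were the 3 without a promoter region in every list. ALPL was counted through its inner start, since its first starts had no region within 1 kb in any list. That inner start is not among the RefSeq starts of ALPL used here.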

How the data were processed

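Omni-ATAC libraries of U2OS cells were sequenced by the authors as paired-end reads. Per the study's methods and the submitters' processing notes, reads were trimmed with cutadapt 1.9.1, aligned to hg38 with Bowtie2 2.4.5, handled with SAMtools 1.7, Picard and bedtools 2.29.2, and regions were called in each library separately with MACS2 2.2.7.1. The deposited lists give a fold enrichment (a ratio of pileup to local background) at each summit, with its p value and q value as −log10 p and −log10 q. The lists hold records down to a −log10 p of 2, and were not normalised to each other by the authors.

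Records with the same interval were collapsed to the highest fold enrichment. Heights were turned into percentiles of fold enrichment within each list (mid-ranks). Overlapping regions of the 8 lists were merged into sites on chromosomes 1 to 22 and X. Percentiles at sites with a region in all 8 lists, and at promoters (strongest region within 1 kb of any annotated start of a protein-coding gene), were fitted with limma 3.58.1 (R 4.3.3) on UV and genotype, and in a further fit on their interaction. Benjamini-Hochberg adjustment ran over all sites or promoters of the genome, with a threshold of 0.05. Region numbers were compared by exact two-sided permutation over 70 assignments of 4 and 4 libraries, whose smallest p is 0.0286. The mean pileup was solved from fold enrichment and p value. Scripts were tested on simulated data. The files hold no read counts, so that no counting interval is given. Sequences came from hg38 and RefSeq (GRCh38.p14). The genes described are all 10 members, with the promoter, the strongest site, each site that passed a test and each site on a single side. Of the other lists, the highest and lowest promoters are named, and the members and lists were chosen with earlier results of these data known. Alternatives comprised other thresholds, windows, scalings and left-out libraries. Replicate numbers were not used to pair the libraries in the main fits, and the labels do not state a pairing. The sequence and values of 1 site are not reported here.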

Additional observations from a re-analysis of the deposited data

How the results depend on the processing

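The count of sites that changed with UV, 2 among those of the 10 genes, depended on the scale. It was 1, lower after UV, with regions at a q value below 0.05 (2% of all sites passed) and at 0.01 or below (3%). It was also 1, lower after UV, over gene spans only and over summit windows (2.18%). It was 5 with equal numbers of regions per list (1 higher after UV; 5.35% of all sites passed), 8 with normal scores (2 higher; 7.72%), 10 of 290 sites with absent regions set at percentile 0 (8 higher; 2.77%) and 16 with quantile-normalised log2 fold enrichment (5 higher; 14.1%). The cause was not tested. Leaving out 1 library gave 0 to 2, when 0.144% to 1.11% of all sites passed. On a percentile of −log10 p, the RUNX1 site was no longer past the threshold (limma adjusted p = 0.0756) and the RUNX2 site was (0.0246). Replicate numbers were not treated as a pairing in the main fits. Deviations of same-numbered libraries correlated at -0.0790 to 0.137, which cannot show whether those libraries were prepared together. With the replicate number in the model as a block, 0.602% of all sites passed. Of the 2 sites, the RUNX2 site passed (limma adjusted p = 0.0449) and the RUNX1 site did not (0.0729). The genotype count was 0 except 1 of 290 sites with absent regions at percentile 0, when 0.459% of all sites passed. The interaction count stayed at 0 under all 19 alternatives. Promoters differing by UV numbered 1 with equal numbers of regions (0.577% of all promoters passed) and 3 with normal scores (10.7%), all lower after UV.

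Sites on a single side of UV, 9 (0.782% of all sites), numbered 9 to 15 with 1 library left out, when the share of all sites was 0.962% to 1.37% (15 without WT 3 h post UV replicate 1 and 14 without unchallenged WT replicate 1). Those on a single side of the genotype numbered 0 to 2 with 1 library left out, when the share of all sites was 0.419% to 0.584%. The log2 difference in region number by UV, 0.0260, ranged from -0.0606 to 0.0928 with 1 library left out. It was 0.171 at a q value below 0.05, 0.295 (exact permutation p = 0.0571) at 0.01 or below, 0.151 with equal numbers of regions, 0.129 as a share of the list and 0.212 for bases covered. That by genotype, 0.0527, ranged from -0.000978 to 0.152 with 1 library left out and was -0.0304 as a share of the list. With 2 libraries per group and a pileup of 1.39 in the shallowest, an absent region may be one below the calling limit of its library.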
